A study of Homo sapiens with 6 samples.

Results

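Expression is described here for 10 regulators and adhesion molecules of the epithelial-mesenchymal transition (EMT). The genes were the EMT transcription factors SNAI1, SNAI2, ZEB1, ZEB2 and TWIST1, the epithelial factor GRHL2, the cadherins CDH1, CDH2 and CDH6, and the epithelial adhesion molecule EPCAM. They were taken by symbol from a deposited table of read counts, in which they made up 10 of 58735 genes. The cells were ACHN, an established line of human renal carcinoma, named by the submitters as clear cell renal cell carcinoma. One group of 3 libraries came from cells given curcumol, a sesquiterpenoid of Curcuma rhizomes, and the other group of 3 from control cells, both of wild-type genotype. The sample labels describe the control as vehicle-treated whereas the series text says that it had no drug, and which of these holds is not known. No dose or time of exposure is stated in the sources used here, and everything rests on a single line grown as bulk cultures. The libraries were made from poly(A) RNA, and the replicates are labelled as independent biological ones.

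In EMT, epithelial cells loosen their contacts and take on traits of migrating mesenchymal cells. SNAIL proteins (SNAI1, SNAI2) and ZEB proteins (ZEB1, ZEB2) are zinc finger repressors that bind E-box sequences and silence epithelial genes, CDH1 above all. CDH1 encodes E-cadherin, which joins epithelial cells through catenins to actin, and a swap from E-cadherin to N-cadherin (CDH2) is the textbook sign of the transition. GRHL2 keeps epithelial genes on and opposes ZEB1, and microRNAs of the miR-200 family bind the 3′ untranslated regions (UTRs) of ZEB1 and ZEB2 mRNA and lower them. Renal tubule cells and the carcinomas that arise from them are unusual among epithelia in that many carry N-cadherin or the kidney cadherin CDH6.

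Library totals ran from 16962012 to 17827433 counts, and edgeR's quasi-likelihood test was run on the 15160 genes that passed a filter on low counts. Of these, 79.7% were called at an adjusted p under 0.05, 39.4% as higher and 40.3% as lower in curcumol, with a median log2 fold change of -0.02. The groups did not overlap for 81.0% of tested genes, so a call or a separation by itself sets a gene apart from few others. All 11 tested markers of renal epithelium fell (median log2 fold change -0.65), while with an offset for GC content 8 fell and 1 rose (median -0.33). Among them CDH16 passed the filter on low counts only through its control libraries, so its fall is no support for the count of 11. The summed level of all 13 renal markers listed, in CPM, the counts per library scaled to a common library size, was 4062 to 4293 in control and 2571 to 2926 in curcumol. The keratin KRT8 by itself made up much of this sum, at 1970 ± 66.1 CPM in control and 1326 ± 82.5 in curcumol (SD, n = 3). CA9, a typical marker of clear cell carcinoma, was near absent with 1 count in all control and 5 in all curcumol libraries, and PROM1 had 1 and 2. Curcumol replicate 2 stood apart in fibroblast markers, named after their values were seen. It had 70 counts of COL1A2, 22 of LUM, 11 of DCN and 8 of PDGFRA, where each other library had at most 2 of any of these.

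Of the 10 genes, 7 had enough counts to be tested. The transcription factors SNAI1, ZEB1 and ZEB2 were higher in curcumol, CDH2 was lower, and SNAI2, CDH1 and EPCAM did not pass the test. That made 3 of 7 higher beside 39.4% of all tested genes, and 1 of 7 lower beside 40.3%. The groups did not overlap for 5 of the 7, beside 81.0% of all tested genes. The other 3 genes, TWIST1, GRHL2 and CDH6, had at most 1 count in all libraries together. Without curcumol replicate 2 the same 4 members were called, with log2 fold changes of 2.86 for SNAI1, 2.20 for ZEB1, 1.78 for ZEB2 and -0.33 for CDH2. In bulk RNA, fewer cells expressing a gene and less of its RNA per cell cannot be told apart, and the same holds for a rise.

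**Figure D1:**
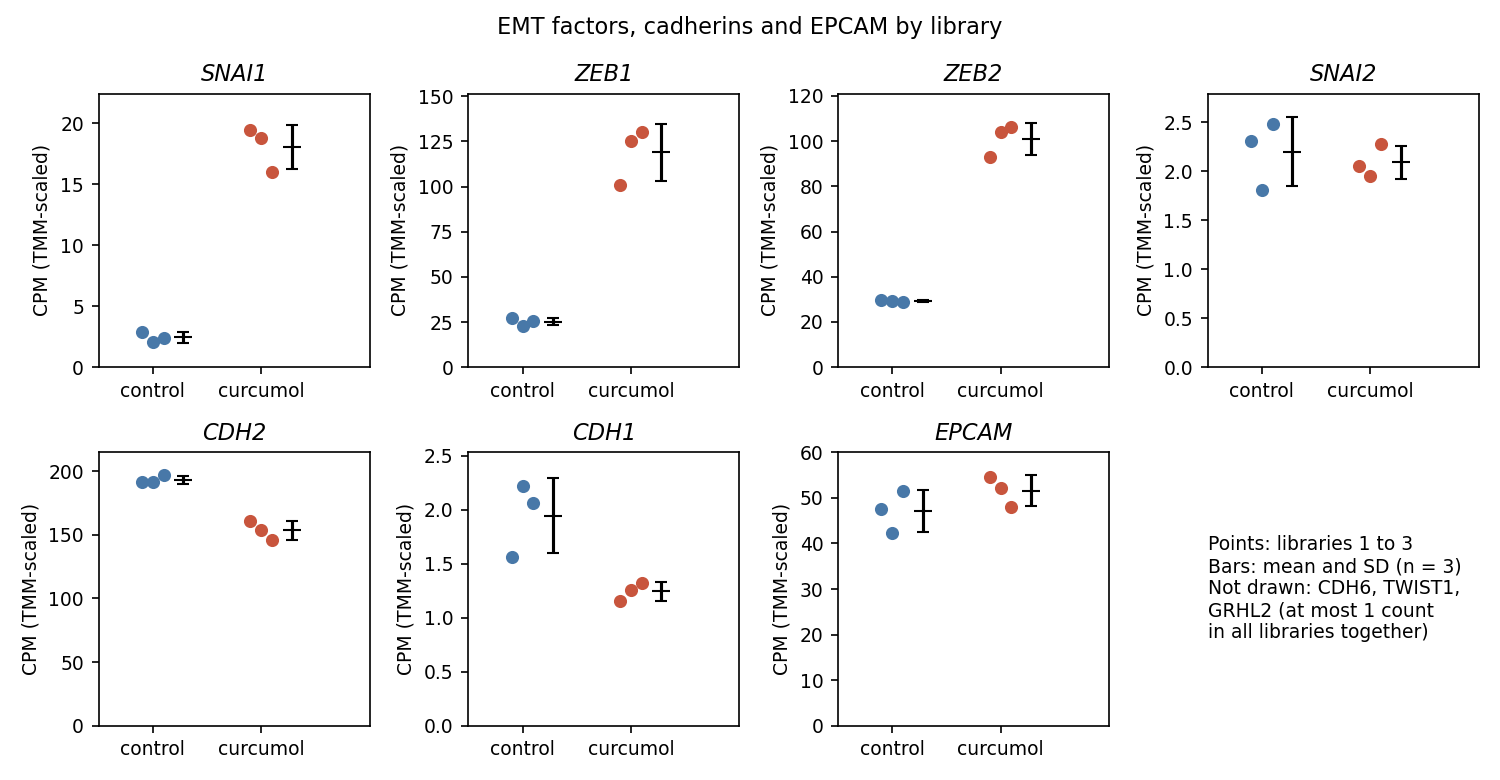
Level of each tested gene in CPM after TMM scaling (vertical axes, linear from 0) in 3 control and 3 curcumol libraries, one point per library, with mean and SD. SNAI1, ZEB1 and ZEB2 lie far above control in every curcumol library, CDH2 and CDH1 lie below it, and SNAI2 and EPCAM overlap.

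SNAI1 (ENSG00000124216, chromosome 20, 49982999 to 49988886, GRCh38), the SNAIL protein most directly tied to repression of CDH1, had 54, 40 and 46 counts in the control libraries against 303, 299 and 253 in the curcumol libraries. Each curcumol library was well above each control library, from a low starting level. SNAI1 went from 2.45 ± 0.426 to 18.1 ± 1.83 CPM (SD, n = 3). The log2 fold change was 2.88 ± 0.16 (SE, adjusted p = 3.79e-13 by edgeR), or 7.37-fold, the largest among the tested members.

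ZEB1 (ENSG00000148516, chromosome 10, 31318495 to 31529814), a zinc finger repressor with E-box binding domains at both ends, had 503, 444 and 496 counts in the control libraries against 1575, 1998 and 2066 in the curcumol libraries. The curcumol libraries were all higher, with replicate 1 the lowest of them. The mean went from 25.2 ± 2.11 to 119 ± 15.8 CPM (SD, n = 3), which is a log2 fold change of 2.24 ± 0.10 (SE, adjusted p = 1.48e-14 by edgeR). ZEB2 (ENSG00000169554, chromosome 2, 144364364 to 144524583), its close relative, had 551, 565 and 556 counts in the control libraries against 1449, 1654 and 1683 in the curcumol libraries. Here too replicate 1 was the lowest curcumol library, and the groups were far apart. ZEB2 went from 29.2 ± 0.474 to 101 ± 7.17 CPM (SD, n = 3), which is a log2 fold change of 1.79 ± 0.08 (SE, adjusted p = 4.85e-15 by edgeR). A called rise at least as large as that of ZEB2 was found for 9.54% of all tested genes.

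The change of a gene went with its GC content across the table (Spearman's rho -0.34 over 15154 genes, which are not independent replicates). The longest transcripts of ZEB1 and ZEB2 have 38.5% and 39.1% GC, below the median of 48.0% of tested genes, and that of SNAI1 has 58.2%. With an offset for GC content the log2 fold changes were 1.67 for ZEB1, 1.25 for ZEB2 and 3.40 for SNAI1, all still called. The part of base composition in these rises was not tested further.

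The ratio of ZEB1 to ZEB2, both per kilobase of their principal transcript, was 1.61, 1.38 and 1.57 in control and 1.91, 2.13 and 2.16 in curcumol. These values did not overlap, so ZEB1 gained on ZEB2 in all 3 curcumol libraries. The ratio of ZEB1 to SNAI1 was 2.90, 3.45 and 3.35 in control and 1.62, 2.08 and 2.54 in curcumol, again without overlap and in the other direction. An exact permutation test on 3 against 3 libraries cannot give a two-sided p below 0.1, so these ratios were not tested.

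ZEB1 and ZEB2 are the classic targets of the miR-200 family, and their sites are shown because these 2 mRNAs hold many of them and the other 6 members searched at most 2. The 5 mature miRNAs (RefSeq, GRCh38.p14) are given with the seed, bases 2 to 8, in capitals. A pair of them share the seed AACACUG:
miR-141-3p: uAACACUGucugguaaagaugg
miR-200a-3p: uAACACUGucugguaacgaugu
The other 3 share the seed AAUACUG, which differs by a single base:
miR-200b-3p: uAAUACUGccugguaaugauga
miR-200c-3p: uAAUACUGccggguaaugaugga
miR-429: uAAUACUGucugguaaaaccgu

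The 3′ UTR of each member's principal transcript (GENCODE 29, for 8 members) was searched on the transcript strand for the 7-base matches CAGTGTT and CAGTATT, which do not overlap each other. ZEB1 held 8 matches in 1938 bases, 3 of CAGTGTT and 5 of CAGTATT. Of 4921 human 3′ UTRs at least this long, ZEB1 among them, 0.0406% held as many in their first 1938 bases and 40.4% held any. ZEB2 held 9 matches in 5370 bases, 4 of CAGTGTT and 5 of CAGTATT, as many as 0.117% of 853 3′ UTRs at least this long, ZEB2 among them. CDH6 held 2 in 5838 bases, and SNAI1, TWIST1, CDH1, CDH2 and EPCAM held 0. One site of each kind is shown for both mRNAs, as the DNA letters of the transcript strand with the match in capitals. They lie at chr10:31527617-31527644 and chr10:31528030-31528057 (plus strand) for ZEB1, and at chr2:144389048-144389075 and chr2:144388706-144388733 (minus strand) for ZEB2, in the build GRCh38.
ZEB1 site 1: cattgttttatcttatCAGTATTatcac
ZEB1 site 2: gcaaaatcatcagaatCAGTGTTtgtga
ZEB2 site 1: ccgcactaccatacatCAGTATTtttat
ZEB2 site 2: aagtgccatccttgtaCAGTGTTaagag
A match is a description of the letters. Mature miRNAs are too short for poly(A) libraries, so their levels were not measured. Counts at their genes were few: MIR429 had 23 in all control and 8 in all curcumol libraries, MIR200A had 7 and 11, MIR200B 4 and 6, MIR200C 0 and 1, and MIR141 had 0. The host transcript MIR200CHG had 0 and 1.

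Promoters were searched for the E-box CACCTG, the motif that SNAIL and ZEB proteins bind, on both strands of the 250 bases before the start. This covered CDH2, ZEB1 and ZEB2, with promoters from RefSeq (GRCh38.p14), and SNAI2 and GRHL2 were again left out of the search. The E-box was present in 17.5% of 35116 promoters of that length. CDH2 (2 start sites) and ZEB2 had 0 matches. ZEB1 had matches in 2 of its 7 windows, which overlap in part with its exons. The most upstream window, chr10:31318167-31318416 on the plus strand, is shown because it lies ahead of the annotated start of ZEB1, with its match, the reverse complement CAGGTG, in capitals.
ZEB1 promoter: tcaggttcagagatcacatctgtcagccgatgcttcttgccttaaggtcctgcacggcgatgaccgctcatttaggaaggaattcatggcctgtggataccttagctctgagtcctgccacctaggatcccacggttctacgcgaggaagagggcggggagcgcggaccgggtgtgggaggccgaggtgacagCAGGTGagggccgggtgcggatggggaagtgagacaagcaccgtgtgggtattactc
This stretch also lies under ZEB1-AS1, the noncoding RNA made from the other strand of the same promoter region.

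ZEB1-AS1 (ENSG00000237036, chromosome 10, 31206278 to 31320447, minus strand) was looked at after its values were seen. It had 52, 50 and 68 counts in the control libraries against 12, 15 and 19 in the curcumol libraries, and the groups did not overlap. The level went from 2.96 ± 0.487 to 0.970 ± 0.217 CPM (SD, n = 3), which is a log2 fold change of -1.60 ± 0.30 (SE, adjusted p = 4.72e-05 by edgeR), opposite in direction to ZEB1. ZEB1 and ZEB1-AS1 share 366 exonic bases, and since the use of strand in counting is not given in the sources used here, reads from those bases cannot be assigned to one strand. ZEB2 shares 1299 exonic bases with ZEB2-AS1, which had 4 counts in all control and 2 in all curcumol libraries.

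SNAI2 (ENSG00000019549, chromosome 8, 48917604 to 48921740), also called SLUG, had 43, 35 and 48 counts in the control libraries against 32, 31 and 36 in the curcumol libraries. The groups overlapped once scaled, at 2.20 ± 0.350 and 2.09 ± 0.167 CPM (SD, n = 3). The log2 fold change was -0.07 ± 0.26 (SE, adjusted p = 0.807 by edgeR) and turned to 0.0096 without control replicate 3, so no direction can be given. At these counts a change as small as its SE could not be seen.

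TWIST1 (ENSG00000122691, chromosome 7, 19020991 to 19117672), a helix-loop-helix EMT factor, had 0 counts in 5 libraries and 1 count in curcumol replicate 2. A count of 0 allows up to 3 counts per library, or 0.155 to 0.192 CPM here. Its relative TWIST2, named after its values were seen, had 114, 121 and 145 counts in the control libraries against 49, 30 and 37 in the curcumol libraries. TWIST2 fell by 1.43 on the log2 scale (SE 0.21, edgeR adjusted p = 2.14e-06).

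Among 18 other EMT factors, 13 were tested, 4 rose, 8 fell and 1 did not pass, beside 39.4% higher and 40.3% lower among all tested genes. The median log2 fold change was -0.21, beside -0.02 for all tested genes. This list median moved to -0.49 with a GC offset, with 5 up and 7 down. With library totals it was -0.48, beside -0.28 for all tested genes. Against a change of 1.2-fold, 4 were called up and 6 down. MSX1, a homeobox factor, rose from 3.40 ± 0.312 to 35.1 ± 2.78 CPM (SD, n = 3), which is a log2 fold change of 3.36 ± 0.12 (SE). TBX3, a T-box repressor of CDH1, rose by 2.59 ± 0.13. HMGA2, a chromatin protein that promotes SNAI1 and TWIST1 transcription, was lower at 39.7 ± 3.52 than at 142 ± 6.82 CPM in control (SD, n = 3), which is a log2 fold change of -1.84 ± 0.08 (SE). Outside the naming rule, the other rises were those of FOXC1 (1.72) and SOX9 (1.24). Besides HMGA2 and TWIST2, the falls were those of FOXC2 (-1.98), TCF3 (-1.28), SOX4 (-1.27), TCF4 (-0.83), FOSL1 (-0.21) and ETS1 (-0.15).

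GRHL2 (ENSG00000083307, chromosome 8, 101492432 to 101669726), a grainyhead factor of epithelial identity, had 0 counts in all 6 libraries. Of 17 other epithelial transcription factors and splicing regulators, 7 were tested, 4 rose, 2 fell and 1 did not pass, with a median of 1.38. Among all tested genes 39.4% were higher and 40.3% lower. The list median moved with the settings, to 0.72 without a filter on low counts, 1.02 with a GC offset and 1.65 with a stricter filter. KLF5, a Kruppel-like factor of proliferating epithelium, rose from 13.3 ± 2.79 to 129 ± 11.6 CPM (SD, n = 3), which is a log2 fold change of 3.28 ± 0.12 (SE). KLF4, its relative in differentiated epithelium, rose by 2.23 ± 0.14. Other calls were FOXA1 (1.89), the GRHL2 relative GRHL1 (1.38) and ESRP2, an epithelial splicing regulator (-1.33), and ELF3 did not pass (0.19).

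**Figure D2:**
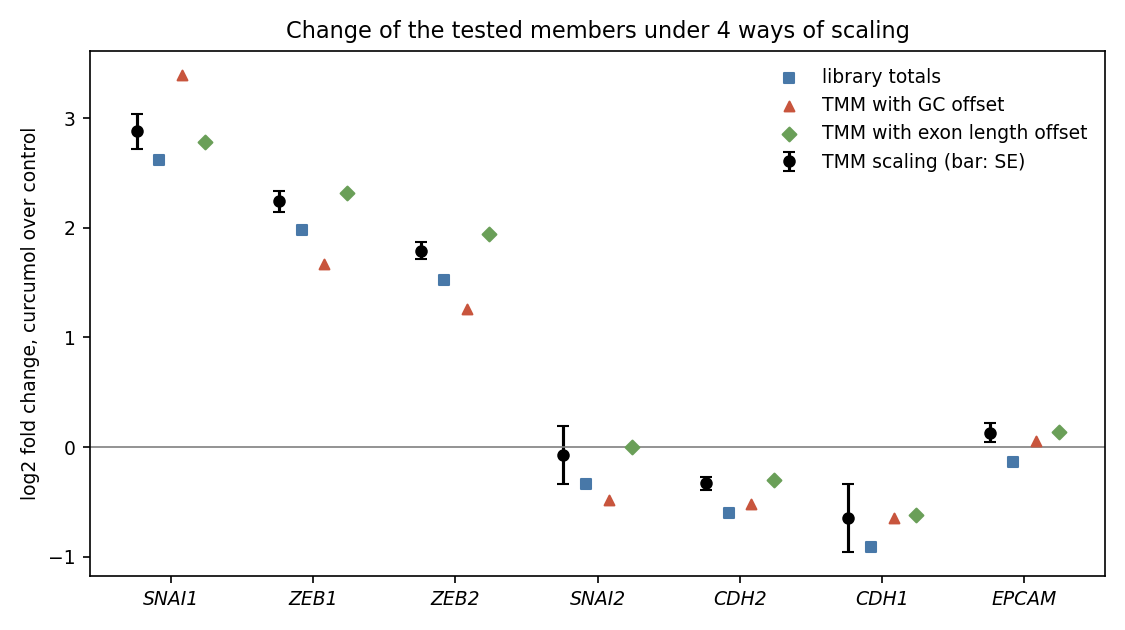
Log2 fold change of curcumol over control (vertical axis) of the 7 tested genes under 4 ways of scaling, with the SE shown for TMM scaling. SNAI1, ZEB1 and ZEB2 stay above 1.2 under each, CDH2 and CDH1 stay below 0, SNAI2 lies at or below 0, and EPCAM changes sign with library totals (0.13 and -0.14).

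CDH1 (ENSG00000039068, chromosome 16, 68737225 to 68835548), E-cadherin, was scarce before treatment, with 29, 43 and 40 counts in the control libraries against 18, 20 and 21 in the curcumol libraries. The 3 curcumol libraries were all below the 3 control libraries, but the counts are small. Summed over the group there were 112 counts in control (exact Poisson 95% interval 92.2 to 135) and 59 in curcumol (44.9 to 76.1), intervals that cover counting error only. The level went from 1.95 ± 0.344 to 1.24 ± 0.0870 CPM (SD, n = 3), which is a log2 fold change of -0.64 ± 0.31 (SE, adjusted p = 0.0628 by edgeR), which did not pass the threshold. It did pass without control replicate 1, the lowest control library (-0.79, adjusted p = 0.0416), and with library totals in place of TMM scaling (-0.91, adjusted p = 0.0111), both with edgeR. CDH1 shares 347 exonic bases with AC099314.1 on the other strand.

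CDH2 (ENSG00000170558, chromosome 18, 27950966 to 28177446), N-cadherin, had the most counts of any cadherin, 3559, 3703 and 3807 counts in the control libraries against 2505, 2448 and 2312 in the curcumol libraries. All 3 curcumol libraries were lower. The mean went from 193 ± 3.04 to 153 ± 7.24 CPM (SD, n = 3), which is a log2 fold change of -0.33 ± 0.06 (SE, adjusted p = 2.56e-05 by edgeR). The change was small and moved with the scaling, to -0.60 under library totals and -0.52 under the GC offset, and it did not pass a test against a change of 1.2-fold (adjusted p = 0.0590, edgeR). CDH2 shares 136 exonic bases with AC110015.1 on the other strand.

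The textbook swap from E- to N-cadherin was examined as the ratio of CDH2 to CDH1 per kilobase of principal transcript in each library. It was 139, 97.2 and 107 in control and 157, 138 and 124 in curcumol. The groups overlapped, and N-cadherin exceeded E-cadherin by at least 97.2-fold already in each control library.

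CDH6 (ENSG00000113361, chromosome 5, 31193750 to 31329146), kidney cadherin, had 0 counts in 5 libraries and 1 count in curcumol replicate 2. Of the 18 other classical and related cadherins searched, 4 had enough counts to be tested, and all 4 fell, beside 40.3% of all tested genes. Their median log2 fold change was -1.65. It was -0.98 without curcumol replicate 1 and -0.90 without curcumol replicate 3, where 5 were tested, and -0.97 with a stricter filter, where 3 were tested. CDH4, R-cadherin, was lower at 7.27 ± 1.80 than at 40.3 ± 2.85 CPM in control (SD, n = 3), which is a log2 fold change of -2.47 ± 0.13 (SE). CDH13, T-cadherin, which is anchored to the membrane without a catenin-binding tail, changed by -0.90 ± 0.08, from 90.1 ± 5.59 to 48.3 ± 3.26 CPM (SD, n = 3). CDH24 changed by -0.99 ± 0.15, and its call was lost with a GC offset, which left 3 of the 4. CDH16, kidney-specific cadherin, had 62 counts in all control and 10 in all curcumol libraries (-2.32 ± 0.53). It passed the filter on low counts only through its control libraries, so its fall is no support for the count of 4. The stricter filter left it out.

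With TMM scaling CDH2 fell less on the log2 scale than the 4 other called cadherins, and its share of all counts from 21 cadherins was higher in curcumol. It was 56.8%, 55.7% and 57.4% in the control libraries and 70.5%, 68.5% and 71.2% in the curcumol libraries, with no overlap. The share of CDH4 went from 11.8% ± 0.908 to 3.29% ± 0.657 and that of CDH13 from 26.4% ± 1.39 to 22.1% ± 0.662 (SD, n = 3). CDH1 made up 0.571% in both groups (SD 0.0957 and 0.0707, n = 3). These shares are of counts and are not corrected for transcript length.

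**Figure D3:**
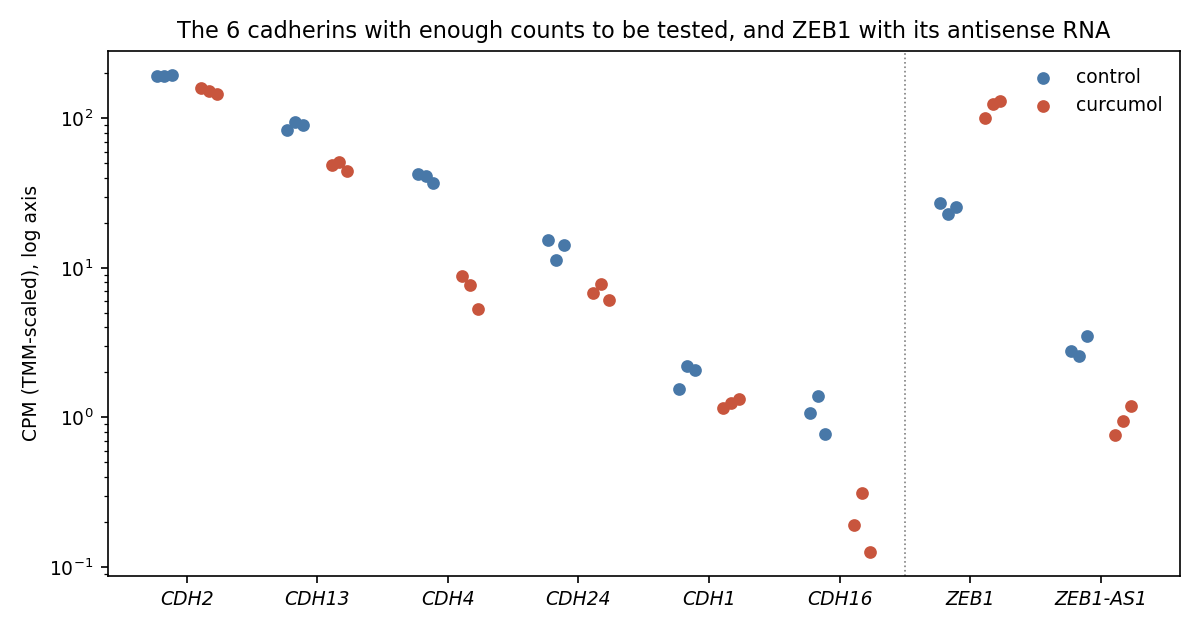
CPM on a log axis for the 6 cadherins with enough counts to be tested and, right of the dotted line, ZEB1 and its antisense RNA, in 3 control and 3 curcumol libraries. CDH2 stays near the top while CDH4 drops from 40.3 to 7.27 CPM on average, and ZEB1 and ZEB1-AS1 move in opposite directions.

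The mRNAs of proteins that bind cadherins or share their junctions were split in direction. Of 15 catenins, nectins and partners, 13 were tested, 4 rose, 6 fell and 3 did not pass, with a median of -0.12. Among all tested genes 39.4% were higher and 40.3% lower, so the split by itself does not set this list apart. CTNNA1, alpha-catenin, which links the complex to actin, rose from 423 ± 16.2 to 749 ± 5.68 CPM (SD, n = 3), which is a log2 fold change of 0.83 ± 0.05 (SE). NECTIN2, an immunoglobulin-like adhesion molecule of the same junctions, rose by 0.91 ± 0.07. PKP4, a p120-related catenin, changed by -0.95 ± 0.06. Beyond these, LIMA1 (1.17) and NECTIN3 (0.34) rose, and the members that did not pass were CTNNB1, which encodes beta-catenin (0.04), JUP (-0.12) and AFDN (0.01). With library totals the split was 3 up and 9 down.

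EPCAM (ENSG00000119888, chromosome 2, 47345158 to 47387601), a surface glycoprotein of epithelial cells, had 883, 820 and 1000 counts in the control libraries against 853, 832 and 759 in the curcumol libraries. Scaled levels overlapped, at 47.1 ± 4.67 and 51.6 ± 3.40 CPM (SD, n = 3). The log2 fold change was 0.13 ± 0.09 (SE, adjusted p = 0.165 by edgeR) with TMM scaling and -0.14 (adjusted p = 0.150) with library totals. Its direction therefore depends on the scaling, and library totals move the median of all tested genes from -0.02 to -0.28, with 31.8% called as higher and 48.6% as lower.

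Levels can be set side by side between genes only per kilobase of transcript. In control, in mean CPM per kilobase of the principal transcript, CDH2 stood first at 44.6, followed by EPCAM at 27.3, ZEB1 at 4.65, ZEB2 at 3.06, SNAI1 at 1.45, SNAI2 at 1.09 and CDH1 at 0.398. The ranges of SNAI1 (1.22 to 1.72) and SNAI2 (0.898 to 1.23) overlapped, and those of the other neighbours did not. In curcumol the order was CDH2 at 35.4, EPCAM at 29.9, ZEB1 at 21.9, SNAI1 at 10.7, ZEB2 at 10.6, SNAI2 at 1.04 and CDH1 at 0.255. SNAI1 drew level with ZEB2, with ranges of 9.47 to 11.5 and 9.73 to 11.1 per kilobase. CDH1 remained the lowest of the tested members in both groups. The place of ZEB2 depends on the length used: per kilobase of all joined exons, 25058 bases for this gene, it was below SNAI1 in both groups.

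Epithelial genes, only some of them known targets of SNAIL or ZEB proteins, were counted next. A link of their changes to the rises of SNAI1, ZEB1 and ZEB2 was not tested. Of 24 epithelial genes that SNAIL or ZEB proteins repress or that mark epithelium, 17 were tested, 4 rose, 11 fell and 2 did not pass, with a median of -0.48, beside 40.3% lower among all tested genes. PKP3, plakophilin 3 of desmosomes and a known ZEB1 target, was lower at 16.2 ± 1.60 than at 53.8 ± 2.76 CPM in control (SD, n = 3), which is a log2 fold change of -1.73 ± 0.09 (SE). KRT8, a simple-epithelium keratin that shares 525 exonic bases with KRT18 on the other strand, changed by -0.57 ± 0.06. AP1M2, an adaptor of epithelial protein sorting, went the other way, by 0.75 ± 0.08. The remaining rises were CDS1 (1.38), OCLN (0.40) and PKP2 (0.35), and CLDN4 (0.66) and MARVELD2 (-0.31) did not pass. Under library totals the split was 2 up and 12 down. A GC offset gave 5 up and 8 down and a median of -0.16.

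Genes that usually rise in EMT were counted in the same way. Of 20 such genes, 15 were tested, 3 rose, 11 fell and 1 did not pass, with a median of -1.01, beside 40.3% lower among all tested genes. Without a filter on low counts all 20 were fitted and the median was -0.54, and without curcumol replicate 2 it was -0.98, with 3 up and 11 down. THY1, a surface glycoprotein of mesenchymal cells, changed by -2.33 ± 0.07, from 156 ± 4.39 to 31.1 ± 2.35 CPM (SD, n = 3). LOXL2, a matrix-crosslinking oxidase, changed by -2.47 ± 0.09, and FN1, fibronectin, by -1.32 ± 0.06. VIM, the filament protein vimentin, named after its values were seen, fell by 0.41 ± 0.06. The rises were ACTA2 (0.88), S100A4 (1.26) and COL3A1, and ITGA5 did not pass (-0.03). COL3A1 had 0 counts in all control libraries and 28, 58 and 23 in curcumol, so no fold is given for it. It passed the filter on low counts only through its curcumol libraries, so its rise is no support for the count of 3. The list median was also -1.01 with the control of COL3A1 set to the floor of 3 counts over the group.

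**Figure D4:**
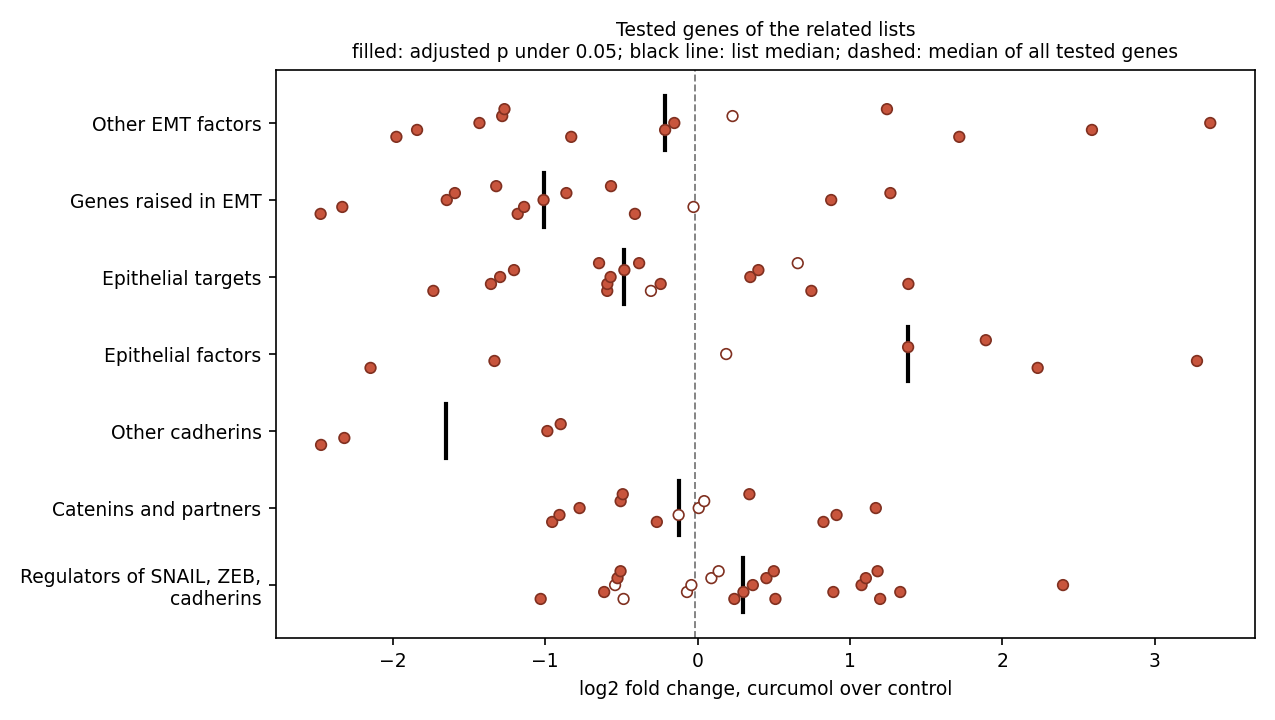
Log2 fold change of curcumol over control (horizontal axis) for the tested genes of 7 related lists (rows), filled where the adjusted p is under 0.05, with each list's median and, dashed, the median of all tested genes; COL3A1, at 0 in control, is not drawn. The genes raised in EMT lie mostly left of 0 with a median of -1.01, all 4 other cadherins lie left of it, and other EMT factors spread from below -1.9 to 3.36.

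For regulators of SNAIL, ZEB and cadherin proteins, 25 of 26 entries were matched and 23 tested. Of these 13 rose, 4 fell and 6 did not pass, with a median of 0.30, beside 39.4% higher among all tested genes. CBLL1, the ubiquitin ligase Hakai that removes E-cadherin from the surface, rose from 65.8 ± 1.46 to 347 ± 14.3 CPM (SD, n = 3), which is a log2 fold change of 2.40 ± 0.06 (SE). It shares 333 exonic bases with AC002467.1. LATS2, a Hippo kinase that stabilises SNAI1 protein, rose by 1.18 ± 0.06. The falls were CTBP1 (-1.03), the corepressor that ZEB proteins recruit, ADAM10 (-0.61), which sheds cadherins, KDM1A (-0.53), a demethylase recruited by SNAI1, and FBXL14 (-0.51), a ubiquitin ligase for SNAI1. The counts were 10 up and 8 down with library totals, and 9 up and 6 down with a GC offset and a median of 0.02.

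Markers of other cell types were measured because leukocytes, endothelium and fibroblasts express ZEB genes. Summed leukocyte markers lay between 1.18 and 1.70 CPM in the control libraries and between 5.37 and 6.47 in the curcumol libraries. The 2 that could be tested of 7 were CD14 and ITGAM, both named after their values were seen, and CD3E was at 0 throughout. CD14 had 5 counts in all control and 215 in all curcumol libraries, and ITGAM had 75 and 18. The counts of CD14 in control and of ITGAM in curcumol were too few to pass the filter on low counts by themselves. This rise and this fall are therefore no support for a change in leukocyte markers. Summed endothelial markers were at 0.155 to 0.161 CPM in control and 0.384 to 1.26 in curcumol, with none of 7 testable and ERG at 0. Summed fibroblast markers lay between 161 and 168 CPM in control and between 37.7 and 56.1 in curcumol, most of it THY1. Of the 4 tested of 9, 2 rose and 2 fell, beside 39.4% higher and 40.3% lower among all tested genes. COL3A1, with 0 counts in control, passed the filter on low counts only through its curcumol libraries, so its rise is no support for this count. The highest of the 3 curcumol libraries in COL1A1 (14, 66 and 27 counts) and COL3A1 (28, 58 and 23) was replicate 2, which also held the single counts of TWIST1 and CDH6. Of these libraries only curcumol replicate 2 held more than 2 counts of LUM. ZEB1 and ZEB2 were called without it, but the other curcumol libraries also held counts of COL1A1 and COL3A1. The part of the fibroblast, leukocyte and endothelial markers in the ZEB values was not tested.

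For each tested member the genes, up to 3, whose log2 CPM followed it most closely over the 6 libraries were sought among 10431 genes with a mean of at least 100 counts. As the libraries fall into 2 groups, any gene that differs between them correlates highly, and the values are descriptions only. For ZEB1 these were FNBP4, YTHDC1 and YES1, for ZEB2 TAF7 and TTC33, and for SNAI1 RPL39, ZNHIT3 and STC2, all at a Pearson's r of 0.999 or above. CDH2 was followed by NDRG3, ITPK1 and FAM122A, also at 0.999, and CDH1 by OXNAD1 (0.992), FBXW2 (0.985) and FAM8A1 (0.984). Of the members whose groups overlapped, EPCAM was followed by PWWP2A (0.985), SNRPD3 (0.971) and UGGT2 (0.961), the first of them as close as FBXW2 to CDH1. SNAI2 was followed by RIDA (0.955), MTREX (0.935) and RAD51C (0.924).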

How the data were processed

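The authors deposited raw counts, whole numbers per Ensembl gene for poly(A) RNA of 3 control and 3 curcumol libraries. The build is GRCh38, per the submitters' processing notes; no source used here names the aligner, counting tool, annotation or strand. All identifiers are those of GENCODE 29, which gave coordinates, exon lengths, GC content and UTRs.

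Genes were filtered with filterByExpr (15160 kept of 30878 with a count), scaled with TMM (factors 1.09 to 1.10 in control, 0.900 to 0.919 in curcumol) and tested with edgeR 4.0.16 (robust quasi-likelihood F test, R 4.3.3). P-values were Benjamini-Hochberg adjusted over all tested genes (threshold 0.05). The SE was taken as the size of the log2 change over the root of F. The code was tested on simulated counts. Replicates differed by more than sampling noise (chi-square over its degrees of freedom 3.48 to 8.00), so each was counted. Alternatives were DESeq2 1.42.0, limma-voom (limma 3.58.1) and other scalings, filters, offsets and left-out libraries.

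The 10 members and all lists were chosen with earlier results of these data known. Named beside the members were the 3 list genes of smallest p with a mean of at least 100 counts. Other list genes were named after their values were seen. Some genes that this rule names are not reported here.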

Additional observations from a re-analysis of the deposited data

How the results depend on the processing

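Under 16 alternatives the count of called genes ran from 9904 to 13625 (main value 12076) and that of called members from 3 to 5 (main value 4). Leaving out 1 library gave 11915 to 12297 genes and 4 to 5 members. Library totals called 4818 genes as higher and 7372 as lower, in place of 5967 and 6109. SNAI1 (2.62 to 3.40), ZEB1 (1.67 to 2.35) and ZEB2 (1.25 to 1.94) kept their direction and call under all 16. The log2 fold change of SNAI2 ran from -0.20 to 0.0096 with 1 library left out, above 0 only without control replicate 3. It was -0.34 with library totals and -0.48 with the GC offset, and not called under either. That of EPCAM was -0.14 with library totals. CDH1 was called with library totals (-0.91) and without control replicate 1 (-0.79). CDH2 was not called against a 1.2-fold change. The stricter filter (mean over 1 CPM and 50 counts) left SNAI2 and CDH1 untested. Without any filter, the median of the other cadherins, 16 of them then in the fit and most with few counts, was 0.65, that of the other EMT factors was 0.16 and that of the mesenchymal genes was -0.54.

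With replicate number as a block, 5955 genes were higher and 6131 lower (12086 in all), with 4 members called, and no member's call changed. Deviations of same-numbered libraries correlated at 0.0238, -0.0123 and 0.0751, so the numbers were not taken as pairing. Control replicates 1 and 3 correlated best with their own number and control replicate 2 did not. Low counts limit CDH1 and SNAI2, and 3 libraries per group limit the rest.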
